A study of Mus musculus with 6 samples.

Results

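The dual-specificity phosphatases (DUSPs) and the Sprouty and Spred proteins are inhibitors of the mitogen-activated protein kinase (MAPK) pathways, and the RNA of 10 of their genes was compared between 2 fractions of tumour fibroblasts. The genes were listed by name: Dusp1, Dusp4, Dusp5, Dusp6, Dusp10, Dusp14, Spry1, Spry2, Spry4 and Spred1. All 10 were among the 12235 genes of the expression table. The cells were podoplanin-positive (PDPN+) cancer-associated fibroblasts, called pCAFs in the labels. They came from mammary fat pad tumours of BALB/c females that were injected at 8 weeks with 100000 cells of 4T1, a BALB/c mammary carcinoma line. The injected line appears as 4T1-GFP in one label and as 4T1-luc in another. Both fractions were sorted as negative for Ter119, CD45 and EpCAM and positive for PDPN, and were then divided by the surface protein Ly6C into 3 Ly6C+ and 3 Ly6C- libraries of mRNA 3′ ends. The labels do not say whether the libraries of a group came from separate mice or from pools. The p-values therefore measure only the spread between these libraries, which may be technical.

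In a MAPK pathway a kinase cascade ends in ERK, p38 or JNK, which are switched on by phosphorylation of a threonine and a tyrosine, and a DUSP switches its MAPK off by removing both phosphates. The inducible nuclear enzymes DUSP1 and DUSP4 act on several MAPKs, nuclear DUSP5 and cytoplasmic DUSP6 act on ERK, and DUSP10 acts on p38 and JNK. Sprouty proteins act further upstream, between growth factor receptors and Ras or Raf, and Spred proteins bring the Ras inhibitor neurofibromin to the membrane. Many of these genes are themselves switched on by the pathway they restrain, which makes them negative feedback inhibitors. In fibroblasts the same pathways carry growth factor, cytokine and stress signals.

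Promoter letters are shown for Dusp1, Dusp5 and Dusp6. They were picked because Dusp1 was higher and the others lower in Ly6C+ pCAFs and because their upstream sequence differs in the searched elements it holds. RefSeq (GRCm38.p6) promoters of 8 of the 10 genes, all but Dusp4 and Spry4, were searched from 250 to 51 bases before the annotated start. Capitals mark every match to the cyclic AMP response element TGACGTCA, its shorter part TGACGT, the AP-1 element TGANTCA, the ETS core CCGGAA, the TATA box letters TATAAA and the CArG box that serum response factor binds. Both strands were searched.
Dusp1 (chr17:26508523-26508722, minus strand): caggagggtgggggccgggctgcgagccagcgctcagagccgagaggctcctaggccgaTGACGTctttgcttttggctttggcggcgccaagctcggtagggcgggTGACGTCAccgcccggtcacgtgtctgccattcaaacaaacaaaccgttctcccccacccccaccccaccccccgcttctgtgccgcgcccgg
Dusp5 (chr19:53528895-53529094, plus strand): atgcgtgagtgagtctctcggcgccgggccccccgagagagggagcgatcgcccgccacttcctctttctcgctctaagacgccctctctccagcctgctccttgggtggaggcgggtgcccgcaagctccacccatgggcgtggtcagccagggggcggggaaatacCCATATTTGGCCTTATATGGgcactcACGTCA
Dusp6 (chr10:99262981-99263180, plus strand): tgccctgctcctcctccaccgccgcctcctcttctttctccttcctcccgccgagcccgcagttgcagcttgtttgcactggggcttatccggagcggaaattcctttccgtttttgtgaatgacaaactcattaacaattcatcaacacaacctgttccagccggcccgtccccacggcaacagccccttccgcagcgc

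The Dusp1 window held the full cyclic AMP element at 143 to 136 bases before the start and the shorter part alone at 191 to 186. The full element includes the shorter one on both strands. The full element occurred in 0.828% and the shorter part in 4.16% of 32851 promoter windows of the same length, and in 1.24% and 5.78% of the 12383 windows of genes in the expression table. The Dusp5 window held adjoining CArG boxes, at 82 to 73 and 72 to 63 bases before the start, and the shorter cyclic AMP part on the opposite strand at 56 to 51. A CArG box was found in 1.16% of all windows and in 0.921% of those of genes in the table. None of the searched elements was found in the Dusp6 window or in those of Dusp10, Spry1, Spry2 and Spred1. Shorter forms of the ETS site were not searched, and the bare letters GGAA do stand in the Dusp6 window. The Dusp14 window held CCGGAA, as did 8.03% of all windows and 13.9% of those of genes in the table. These matches describe sequence only, and binding was not measured.

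The libraries held 1176909 to 2818269 reads on the genes of the table, with all 3 Ly6C+ libraries deeper than the Ly6C- libraries. Values below are the normalised read counts that the authors deposited, which by their steps are whole counts scaled by 1 factor per library. Ly6c1, which encodes the sorted protein, stood at 2316 to 3849 in the Ly6C+ libraries and at 65.5 to 88.6 in the others, so each library followed its label. Its paralog Ly6c2 was low, at 2.32 to 31.7 in the Ly6C+ libraries and at most 1.97 in the Ly6C- libraries. Pdpn ranged from 66.9 to 143 in the Ly6C- group and from 181 to 223 in the Ly6C+ group, Epcam was at most 2.95 and Ptprc, which encodes CD45, at most 4.88. All 12 fibroblast markers were present, with summed levels of 78590 to 89200 in Ly6C+ and 55800 to 73020 in Ly6C- libraries. All 12 were tested: 6 were higher in Ly6C+ pCAFs, 1 was lower and 5 did not pass. Markers of pericytes and smooth muscle summed to 199.4 to 256.5 in Ly6C+ and 1011 to 1583 in Ly6C- libraries, and of 9 tested, 7 were lower in Ly6C+ pCAFs, 1 was higher and 1 did not pass. The lower ones were Cspg4, Notch3, Des, Mcam, Myh11, Acta2 and Cnn1. Their means (Ly6C+ and Ly6C-) were, for instance, 15.3 and 43.0 for Notch3, 7.32 and 103 for Acta2, and 4.35 and 350 for Cnn1. The higher one was the pericyte marker Kcnj8 (117.8 ± 17.03 against 30.05 ± 10.17; limma adjusted p = 0.000366). The pericyte marker Abcc9 did not pass, at means of 30.1 and 11.6 with groups that did not overlap, and Rgs5 stood at 0 to 5.24 over the 6 libraries. Epithelial markers summed to 18.3 to 60.3 and 121 to 410, and endothelial markers (6 of 10 in the table) to 23.3 to 42.7 and 24.9 to 163. Of 5 epithelial markers tested, 2 were lower in Ly6C+ pCAFs and 3 did not pass. Of 4 endothelial markers tested, 3 were lower and 1 was higher. Leukocyte markers (11 of 13 in the table) summed to 1192, 370 and 273 in Ly6C+ replicates 1 to 3 and to 445, 111 and 69.5 in Ly6C- replicates 1 to 3. Of 9 leukocyte markers tested, 2 were higher in Ly6C+ pCAFs and 7 did not pass. Cd3e was higher in all Ly6C+ libraries (164.7, 88.7 and 120.5 against 19.7, 18.7 and 10.5). Lyz2 was the other (264.1, 98.5 and 27.0 against 25.6, 1.70 and 3.93). In Ly6C+ replicate 1, S100a8 and S100a9 stood at 179 and 478, against at most 4.51 in the other Ly6C+ libraries and 0 in the Ly6C- libraries. In Ly6C- replicate 1, Cd74 stood at 315. The part of these markers in the results below was not tested.

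The comparison asks how the expression of MAPK inhibitors differs between PDPN+ fibroblasts with and without surface Ly6C. Dusp1 and Dusp10 were higher in Ly6C+ pCAFs, 3.01-fold and 5.13-fold. Dusp4, Dusp5, Dusp6, Dusp14 and Spry1 were lower, from 31.2-fold for Dusp4 to 1.60-fold for Spry1. Spry4 and Spred1 did not pass the test, and Spry2 was too low to be tested. So of 9 genes tested, 2 were higher, 5 were lower and 2 did not pass, at an adjusted p under 0.05 in limma. Of all 9646 genes tested, 17.1% passed (9.41% as higher and 7.66% as lower in Ly6C+ pCAFs). Higher genes were 55.1% of all calls, or 37.5% with each library divided by its total count, which left the same numbers of inhibitor genes called. The median log2 fold change (Ly6C+ minus Ly6C-) of the 9 genes was -0.85, against 0.00 for all genes tested. In such bulk libraries, fewer cells that express a gene and less RNA per cell cannot be told apart.

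**Figure D1:**
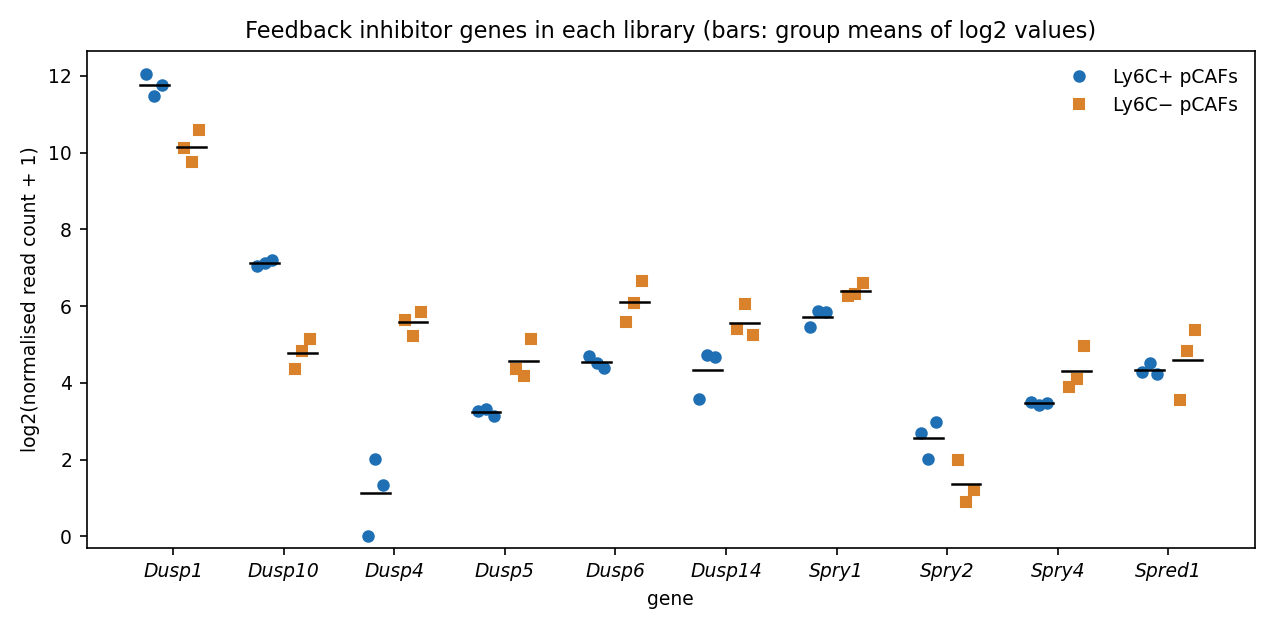
Values of the 10 inhibitor genes in each library as log2(normalised read count + 1), with circles for the 3 Ly6C+ and squares for the 3 Ly6C- libraries and bars at the group means of the log2 values. Groups did not overlap for any gene but Spred1, and the widest gap is that of Dusp4.

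Dusp1, a nuclear phosphatase of p38, JNK and ERK and an immediate early gene, stood at 4249, 2868 and 3479 in the Ly6C+ libraries and at 1105, 869 and 1548 in the Ly6C- libraries. The lowest Ly6C+ value was above the highest Ly6C- value, and the group means were 3532 ± 692 and 1174 ± 345 (SD, n = 3 each). The difference was larger than the spread between libraries (log2 fold change 1.61, SE 0.23; limma adjusted p = 0.000569). Dusp1 lies on chromosome 17, 26505590 to 26562128, minus strand (GENCODE M21 on mm10, protein coding). Its longest annotated transcript overlaps the start of Ergic1 on the other strand at 26561489, far from the 3′ end of Dusp1, where these libraries are read. Ergic1 itself was higher in Ly6C+ pCAFs by less (227 ± 16.2 against 143 ± 10.3).

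Dusp10, the phosphatase of p38 and JNK, stood at 132, 138 and 146 in the Ly6C+ libraries and at 19.7, 27.2 and 34.1 in the Ly6C- libraries. The groups lay far apart, and the Ly6C+ values were close to each other. The group means were 138 ± 7.19 and 27.0 ± 7.20, a log2 fold change of 2.35 (SE 0.23; limma adjusted p = 4.16e-05), the smallest p of the 9 genes. By log2 fold change it ranked 210 from the highest of the 9646 genes tested. Dusp10 lies on chromosome 1, 184013302 to 184075636, plus strand, and overlaps 1700056E22Rik on the other strand, which was low at means of 8.54 and 4.83.

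The other phosphatases of p38 and JNK among the DUSPs were also measured. The means of Dusp8 were 84.6 (Ly6C+) and 56.4 (Ly6C-), those of Dusp16 were 31.7 and 30.9, and neither gene passed (limma adjusted p = 0.137 and 0.923). Dusp8 went in the direction of Dusp10 without overlap of the groups (97.0, 82.7 and 74.2 against 61.0, 71.5 and 36.7), while the Dusp16 groups overlapped. The 95% intervals on the log2 scale were 0.05 to 1.19 for Dusp8 and -0.50 to 0.61 for Dusp16, against 1.84 to 2.85 for Dusp10. The differences between these genes were not themselves tested.

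Dusp4, a nuclear phosphatase induced by ERK, was almost missing from Ly6C+ pCAFs. It stood at 0, 3.01 and 1.55 there, on 0, 4 and 2 reads, and at 49.2, 36.6 and 56.4 in Ly6C- libraries, on 50, 43 and 43 reads. Every Ly6C- value was far above the highest Ly6C+ value. The means were 1.52 ± 1.504 and 47.4 ± 10.02, and the log2 fold change was -4.46 (SE 0.50; limma adjusted p = 0.000106). Of all genes tested, 29 had a larger log2 fold change in either direction. The fold rests on 6 Ly6C+ reads: it was 61.3 without Ly6C+ replicate 2, against 31.2 with all libraries, and the exact 95% counting interval of the pooled read ratio was 14.7 to 90.7. Dusp4 lies on chromosome 8, 34807297 to 34819894, plus strand, with no overlapping gene.

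Dusp6, the cytoplasmic ERK phosphatase, stood at 25.01, 21.8 and 20.1 in the Ly6C+ libraries and at 47.2, 67.2 and 99.6 in the Ly6C- libraries. The Ly6C+ values were close together and below all Ly6C- values, which were further apart. Its log2 fold change was -1.58 (SE 0.28; limma adjusted p = 0.00257). Dusp6 lies on chromosome 10, 99263231 to 99267489, plus strand.

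Dusp5, the nuclear ERK phosphatase whose promoter holds the CArG boxes above, was low in both fractions. It stood at 8.54, 9.02 and 7.73 in the Ly6C+ libraries and at 19.7, 17.01 and 34.1 in the Ly6C- libraries, on 36 and 66 reads in all. The groups did not overlap, and the log2 fold change was -1.32 (SE 0.34; limma adjusted p = 0.0193). The call ended when any 1 of the Ly6C+ libraries or Ly6C- replicate 3 was left out (adjusted p = 0.0501 to 0.0620). An antisense gene, AC137853.2, overlaps Dusp5 on chromosome 19 (53529109 to 53542431, plus strand), and whether the counting used strand is not given in the sources used here.

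Dusp14, a small DUSP without the kinase-binding domain of the enzymes above, stood at 11.0, 25.6 and 24.7 in the Ly6C+ libraries and at 41.3, 65.5 and 36.7 in the Ly6C- libraries. Ly6C+ replicate 1 was the lowest and Ly6C- replicate 2 the highest, and the groups did not overlap. The log2 fold change was -1.23 (SE 0.35; limma adjusted p = 0.0332). Without Ly6C+ replicate 1 the call ended (log2 fold change -0.86; adjusted p = 0.116), as it did without Ly6C- replicate 2 (-0.99; adjusted p = 0.158).

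**Figure D2:**
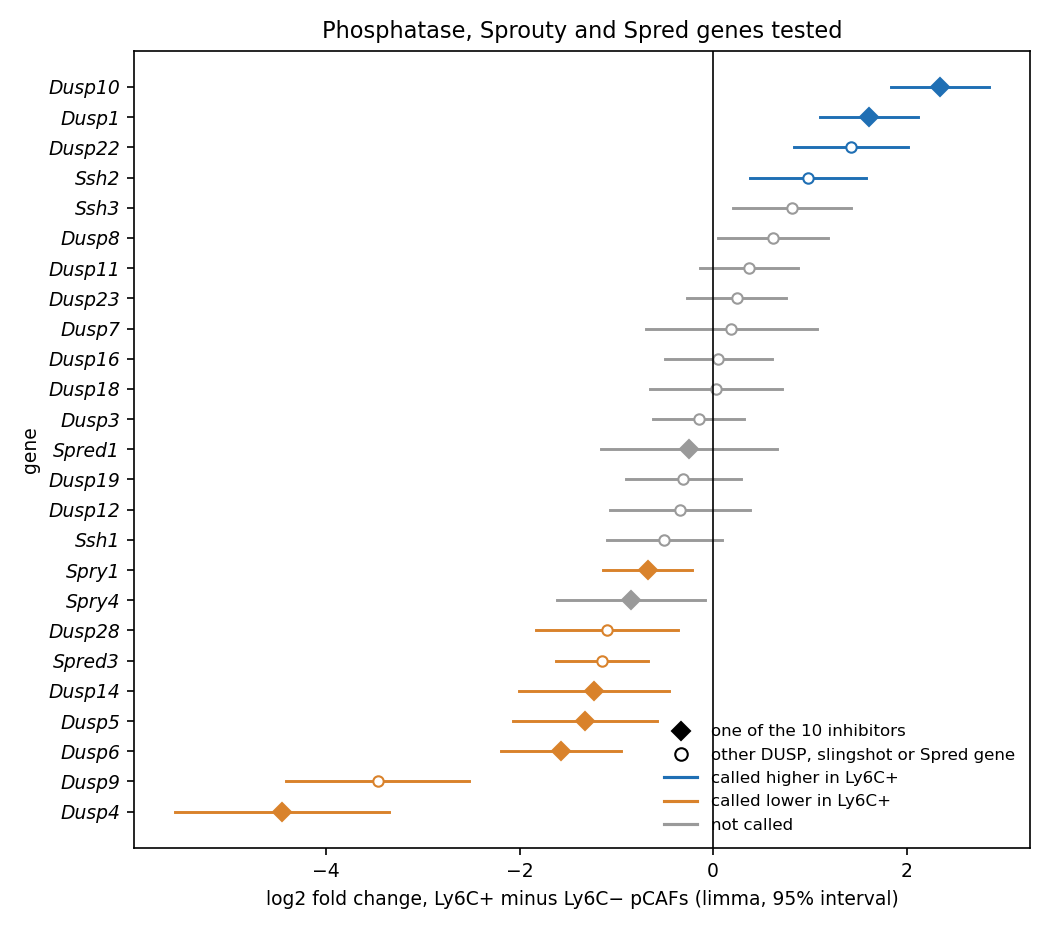
Log2 fold changes (Ly6C+ minus Ly6C-) with 95% limma intervals for the tested inhibitor genes (diamonds) and the other tested DUSP, slingshot and Spred genes (open circles), coloured by call. Dusp10 (2.35) and Dusp1 (1.61) stand at the top, and Dusp4 (-4.46) and Dusp9 (-3.47) at the bottom.

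Within a library, the ratio of the reads of 2 genes does not depend on the scaling. Dusp10 reads were 5.27, 6.31 and 7.27 times the Dusp6 reads in Ly6C+ libraries and 0.417, 0.405 and 0.342 times in Ly6C- libraries. For Dusp1 over Dusp6 the ratios were 170, 132 and 173 against 23.4, 12.9 and 15.5. Neither pair of groups overlapped, and the ratio of geometric means between the groups was 16.1 for Dusp10 over Dusp6 and 9.37 for Dusp1 over Dusp6. These pairs were picked after the values were seen and were not tested.

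Spry1, which restrains receptor signalling to Ras, was lower in Ly6C+ pCAFs. Its values were 42.7, 57.1 and 56.4 in the Ly6C+ group and 75.8, 79.1 and 95.7 in the Ly6C- group, with no overlap. The log2 fold change of -0.68 (SE 0.21) passed narrowly (limma adjusted p = 0.0466). The call ended when any 1 library was left out (adjusted p = 0.0567 to 0.159) and in DESeq2 (0.0822), but not in edgeR (0.0415). Spry1 lies on chromosome 3, 37639947 to 37644598, plus strand, where the unclassified gene Gm42922 overlaps it on the other strand.

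Spry4, of the same family, did not pass. It stood at 10.4, 9.77 and 10.04 in the Ly6C+ libraries and at 13.8, 16.2 and 30.2 in the Ly6C- libraries. The groups did not overlap, but Ly6C- replicate 3 was well above the others of its group, and the 95% interval of the log2 fold change was -1.62 to -0.08 (limma adjusted p = 0.132). A difference as large as that of Dusp6 (-1.58) lies within this interval.

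Spry2 was near the floor of detection, at 5.49, 3.01 and 6.95 in the Ly6C+ libraries and at 2.95, 0.851 and 1.31 in the Ly6C- libraries, on 22 and 5 reads. Its mean of 3.43 was under the minimum of 5 for testing. The groups were just apart, in the opposite direction to Spry1 and Spry4. The pooled read ratio was 3.05 with an exact 95% counting interval of 1.13 to 10.3, which covers counting error only. The ratio of group means was 3.02, or 4.77 without Ly6C- replicate 1. In a fit without the filter it did not pass (limma adjusted p = 0.133).

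Spred1 stood at 18.3, 21.8 and 17.8 in the Ly6C+ libraries and at 10.8, 27.2 and 40.6 in the Ly6C- libraries. The Ly6C- values enclosed the Ly6C+ values, and the difference did not pass (log2 fold change -0.25, 95% interval -1.16 to 0.66; limma adjusted p = 0.755). Its direction turned without Ly6C- replicate 3 (0.15). The related Spred3 did pass, at 34.8, 33.8 and 25.5 in the Ly6C+ libraries and at 65.9, 76.6 and 68.2 in the Ly6C- libraries (log2 fold change -1.15; limma adjusted p = 0.00356), while Spred2, at means of 2.79 and 3.19, was too low to be tested.

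Of the 9 tested inhibitor genes, 8 had groups that did not overlap, as had 33.1% of all genes tested. The plot of all genes against their level shows that the 9 genes lie at mean values from 15.05 (Spry4) to 2353 (Dusp1), among called and uncalled genes of like value.

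**Figure D3:**
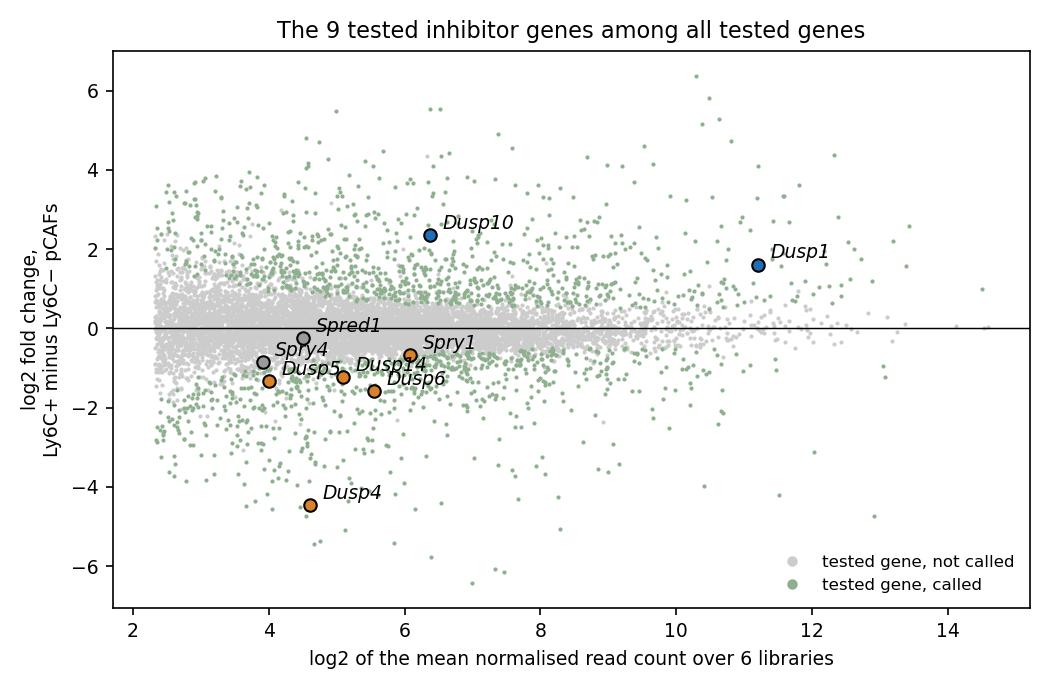
Log2 fold change (Ly6C+ minus Ly6C-) against the log2 mean normalised read count for all 9646 genes tested, with called genes in green and the 9 tested inhibitor genes labelled. Dusp1 and Dusp10 lie above 0, the other 7 below it, and Spry4 and Spred1 within the grey band of genes that were not called.

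Across the rest of the DUSP family, most genes did not pass, as was so for all genes tested, of which 17.1% passed. Of 15 other DUSP and slingshot phosphatase genes tested, 2 were higher, 2 were lower and 11 did not pass, with a median log2 fold change of 0.05. Dusp22, an atypical DUSP linked to JNK signalling, was at 50.1 ± 4.65 in Ly6C+ and 18.6 ± 6.06 in Ly6C- libraries (higher; limma adjusted p = 0.00362), and the cofilin phosphatase gene Ssh2 was higher too (26.9 ± 1.97 against 13.2 ± 2.39; adjusted p = 0.0292). The genes that were lower, named after their values were seen, were Dusp9 and Dusp28 (9.24 ± 2.07 against 21.2 ± 6.42; limma adjusted p = 0.0451). Dusp9, a cytoplasmic ERK phosphatase like Dusp6, stood at 1.22, 1.503 and 3.86 in the Ly6C+ libraries and at 22.6, 34.0 and 43.3 in the Ly6C- libraries (log2 fold change -3.47; limma adjusted p = 0.000214). Dusp7, the third cytoplasmic ERK phosphatase, did not pass at 12.3 and 11.5. The calls of Ssh2 and Dusp28 ended in 7 alternatives each, with adjusted p up to 0.119 and 0.147.

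Among 12 other tested inhibitors of receptors, Ras or ERK, 1 passed. Socs2, a feedback inhibitor of growth hormone and cytokine receptors, was lower in Ly6C+ pCAFs (109 ± 24.99 against 188 ± 44.2; limma adjusted p = 0.0446). Its call ended in 6 alternatives, among them leaving out any library but Ly6C- replicate 1 (adjusted p up to 0.169).

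Most kinase genes of the pathways that the 10 inhibitors restrain did not pass, as was so for all genes tested, of which 17.1% passed. Of 19 tested genes of the Ras, Raf, MEK and ERK cascade, 2 were higher and 1 lower, with a median log2 fold change of 0.11. Mapk3, an ERK gene, did not pass (215 and 211). The scaffold gene Ksr1 and the ERK-activated kinase gene Mknk2 were higher in Ly6C+ pCAFs (111 ± 15.6 against 41.2 ± 24.5, and 403 ± 33.0 against 246 ± 18.3), and the MEK gene Map2k1 was lower (123 ± 25.5 against 233 ± 79.0). The call of Map2k1 (limma adjusted p = 0.0315) ended without Ly6C+ replicates 1 or 3 or Ly6C- replicate 3 (0.134, 0.0534 and 0.0749), and without the mean-variance trend (0.0930).

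Of 20 tested p38 and JNK cascade genes, 4 were higher in Ly6C+ pCAFs and 16 did not pass, with a median of -0.03. Map3k8, a kinase that feeds inflammatory signals into MEK, was 3.65-fold higher (54.9 ± 5.39 against 15.1 ± 1.83). The stress-induced MAPK kinase activators Gadd45g and Gadd45b were 2.03-fold and 1.45-fold higher, and Mapk12, a p38 gene, was named after its values were seen (limma adjusted p = 0.0384). The calls of Gadd45b and Mapk12 ended in 8 and 9 alternatives, library totals among them (adjusted p = 0.133 and 0.0880). The p38 gene Mapk14 stood at 97.1 and 101 and did not pass.

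Upstream, 4 of 14 tested growth factor receptor genes were higher, 2 were lower and 8 did not pass (median -0.03). Pdgfra, the PDGF receptor alpha gene, was higher (518.5 ± 33.0 against 218 ± 11.9), as were the neurotrophin receptor gene Ntrk2 (50.8 ± 11.8 against 9.41 ± 4.15), the collagen receptor gene Ddr2 (95.7 ± 7.07 against 23.0 ± 14.6) and, named after its values were seen, Axl. Pdgfrb was lower in Ly6C+ pCAFs (333 ± 117 against 799 ± 256), a call that ended without the mean-variance trend (limma adjusted p = 0.0506). Kdr, a VEGF receptor that marks endothelium, was lower too, at 88.6, 94.4 and 10.5 in Ly6C- libraries, and its call ended in 6 alternatives (adjusted p up to 0.112). Axl lost its call in 6 as well (up to 0.0916). Of 12 adaptor genes tested, Irs2 passed and was higher (250 ± 37.9 against 133 ± 21.2).

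Genes that ERK activity is known to induce, other than the 10 inhibitors, went both ways. Of 18 tested, 5 were higher, 4 lower and 9 did not pass, with a median of -0.34. Among all genes tested, 9.41% were called higher and 7.66% lower. Etv4, an ETS factor gene that like Dusp6 and the Sprouty genes follows FGF and ERK signalling, stood at 25.6, 33.8 and 23.2 in the Ly6C+ libraries and at 279, 353 and 287 in the Ly6C- libraries (log2 fold change -3.44; limma adjusted p = 1.475e-06). Its relative Etv5 did not pass (14.5 and 22.5). The urokinase receptor gene Plaur and the ETS gene Elk3 were lower too (330 ± 13.6 against 671 ± 50.8, and 64.2 ± 8.14 against 122 ± 4.26), as was Epha2, named after its values were seen (2.33 against 23.6, on 10 Ly6C+ reads).

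The genes of this list that were higher were Myc (515 ± 65.5 against 165 ± 46.4), the survival gene Ier3 (6987 ± 387 against 3981 ± 119), the small MAF factor gene Maff (302 ± 33.1 against 170 ± 43.6) and, named after their values were seen, Egr1 and Phlda1. After quantile normalization Ier3 and Egr1 did not pass (limma adjusted p = 0.135 and 0.375). Maff, Egr1 and Phlda1 also lost their calls in 3, 6 and 7 alternatives in all, with leaving out Ly6C- replicate 2 common to them (0.0739, 0.121 and 0.0884).

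Dusp1 belongs with the immediate early genes that tissue dissociation, part of this protocol, is known to induce. Of 22 tested genes of an early and heat shock list, 17 were higher in Ly6C+ pCAFs and 5 did not pass, while 11 passed after quantile normalization. Among all genes tested, 9.41% were called higher. Egr1 and Ier3 are in this list and among the ERK-induced genes above, so both counts include them. Of the 5 heat shock genes in the list, Hspa8 (216 ± 40.6 against 127 ± 17.5) and Dnajb1 (424 ± 63.6 against 187 ± 39.7) were higher, and Hspa1a, Hspa1b and Hspb1 did not pass; these 5 were named after their values were seen. The list's summed level was 56250 to 61100 in Ly6C+ and 27470 to 31030 in Ly6C- libraries, and its median log2 fold change was 0.95, against 1.61 for Dusp1 and 2.35 for Dusp10. Klf4, Atf3 and Socs3, with the smallest p, had log2 fold changes of 2.42, 2.21 and 1.46. The part of dissociation in the Dusp1 and Dusp10 differences was not tested.

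**Figure D4:**
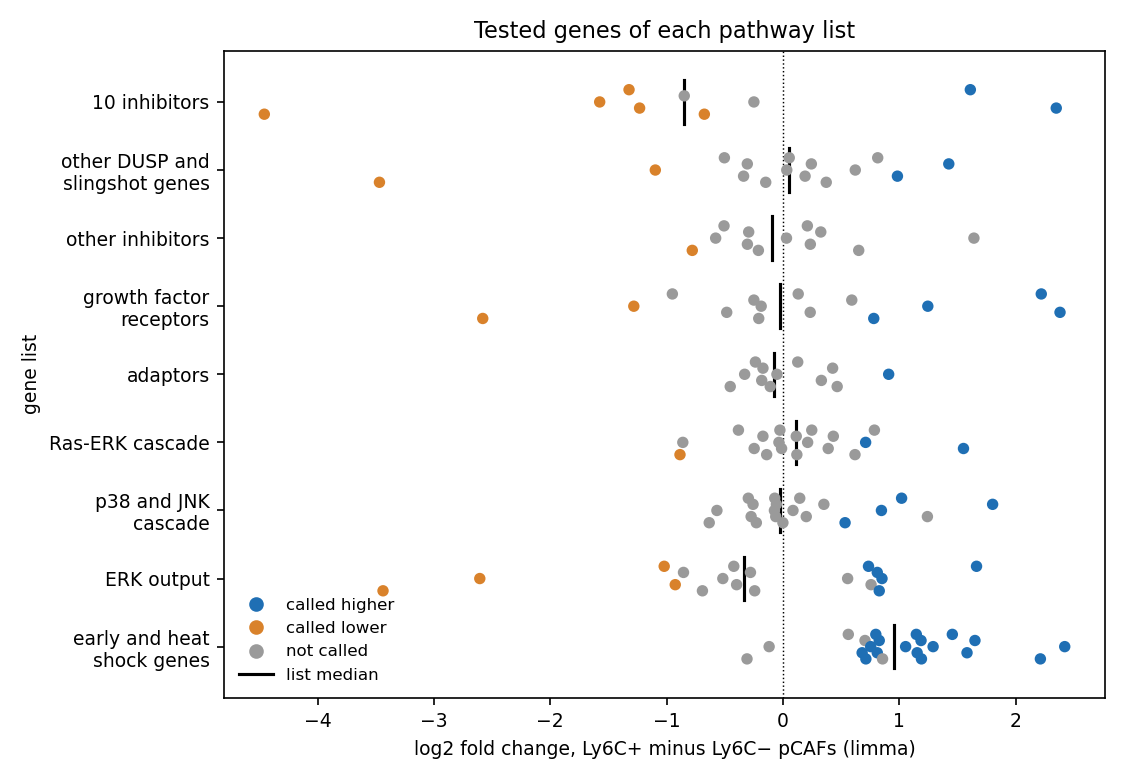
Log2 fold changes (Ly6C+ minus Ly6C-) of the tested genes of the 10 inhibitors and of 8 lists around them, coloured by call, with a black bar at each list's median. The inhibitor genes spread from -4.46 to 2.35, while the kinase cascades centre near 0 and the early and heat shock genes lie mostly above it.

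The genes whose log2 values followed Dusp10 most closely over the 6 libraries were Cxcl1, Prelp, Ctsh, Ackr2 and Ugdh, with Pearson's r of 0.997 to 0.9997. Those closest to Dusp4 were Il20ra, Tbc1d8, Abr, Tns3 and Nxn, with r of 0.993 to 0.999. Both sets separate the same 2 groups of 3 libraries and share library and depth, so r describes these 6 points only.

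The calls of the 9 genes were not equally robust to other settings and left-out libraries. Dusp1, Dusp4, Dusp6 and Dusp10 passed in each of 18 alternatives, with the highest adjusted p at 0.00753, 0.00108, 0.0148 and 0.000829. Dusp5 passed in 13 of 17, Dusp14 in 15 of 18 and Spry1 in 9 of 18, and Spry4 and Spred1 passed in none (lowest adjusted p = 0.0547 and 0.120).

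**Figure D5:**
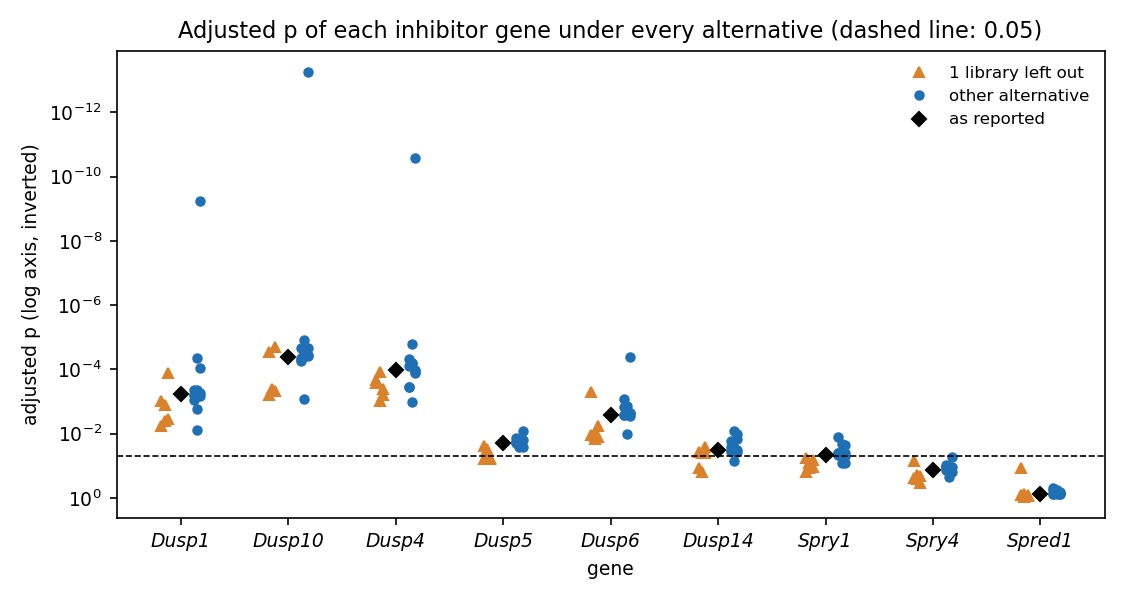
Adjusted p of the 9 tested inhibitor genes on an inverted log axis, as reported (diamonds), with 1 library left out (triangles) and under the other alternatives (circles), with a dashed line at 0.05. Dusp1, Dusp10, Dusp4 and Dusp6 lie above the line throughout, Dusp5, Dusp14 and Spry1 cross it, and Spry4 and Spred1 lie below it.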

How the data were processed

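RNA from 6 libraries of sorted pCAFs was analysed. The deposited table holds signal values, which the authors name normalized counts; by their steps they are gene counts scaled by a single factor in each library. The submitters' processing notes name bcl2fastq, STAR 2.4.2a, HTSeq and mm10; the scaling tool, annotation, strand and molecular tag handling are not given in the sources used here. All values were checked: each was a whole multiple of its library's smallest value (tolerance 0.001), taken as 1 read (0.610 to 1.31), so whole reads were recovered (100% of values). Counting intervals cover counting error only.

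Genes with a mean value of at least 5 (9646) were tested on log2(value + 1) in limma 3.58.1 under R 4.3.3 (mean-variance trend, no block) with Benjamini-Hochberg adjustment over all genes; such fold changes understate low genes. Folds are ratios of group means. The pipeline was tested on simulated data. Alternatives were other pseudocounts, filters and scalings, no trend, a replicate block, each library left out, and edgeR 4.0.16 and DESeq2 1.42.0 on recovered reads. Per pathway list, named genes are all called (3 or fewer), otherwise the 3 with the smallest p per direction at a mean of at least 20. The members and lists were chosen with earlier results of these data known. Figures used matplotlib 3.10.9.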

Additional observations from a re-analysis of the deposited data

How the results depend on the processing

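The direction of 8 of the 9 tested inhibitor genes held in every alternative. That of Spred1, which did not pass, ran from -0.76 to 0.15 with 1 library left out. Leaving out 1 library gave 4 to 6 called inhibitor genes against 7 (4 without Ly6C+ replicate 1), 2 to 4 of them lower against 5, and over all genes 469 to 741 lower calls against 739. Fewer libraries enter these fits. The log2 fold change without 1 library ran from -1.52 to -1.04 for Dusp5, -1.43 to -0.86 for Dusp14 and -0.75 to -0.54 for Spry1. Without the mean-variance trend 3 inhibitor genes were called lower, Dusp14 (-1.23; limma adjusted p = 0.0705) and Spry1 (-0.68; 0.0804) losing their calls. Spry1 also lost its call with no filter (-0.68; 0.0504) and in DESeq2 (-0.68; 0.0822). The cause was not tested. Division by library totals gave 1204 lower calls over all genes against 739, and shifted the median over all genes to -0.19 (log2). The 2 higher and 5 lower calls among the inhibitors stood at the same counts there.

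The repetition numbers are shared by the groups, but the deviations of same-numbered libraries correlated at 0.13, 0.05 and 0.17, so they were not taken as pairs, although each library correlated best with its own number. With a replicate block, 2088 genes were called against 1647, and 7 inhibitor genes as before. Of 32 other named genes that were followed through the alternatives, 19 kept their call in each and the direction of none turned. Genes not among them include Ly6c1, Ly6c2, Pdpn, Cd3e, Lyz2, Ergic1, Hspa8 and Dnajb1. Kcnj8, the lower pericyte and smooth muscle markers and the genes that followed Dusp10 or Dusp4 were not followed either. Read depth limits Spry2, Spry4, Dusp5 and Dusp4 most, with 5 to 136 reads per group.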
